A study of Mus musculus with 12 samples.

Results

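The 10 genes described here are feedback regulators and inflammatory products of the NF-κB pathway: Nfkbia, Nfkb1, Nfkb2, Relb, Tnfaip3, Tnf, Il1b, Il6, Ptgs2 and Birc3. They were taken by the gene name that the array files give, with all of their non-control probes, which came to 15 of 41174 probes on the array. All 15 probes passed the filter on dim signals, so all 10 genes were among the 19823 genes tested. RNA of whole lung from C57Bl/6 mice was hybridised to 12 one-colour Agilent arrays, each array carrying the RNA of a single mouse. One group of 4 was wild type (WT) and breathed room air, another group of 4 was WT and was exposed to cigarette smoke, and the remaining 4 were Rora mutants exposed to cigarette smoke. Smoke came from 1R3F cigarettes on 5 days a week over 4 months. All 12 mice were labelled male with an age of 12 weeks, which is shorter than the smoke protocol and so cannot be their age at its end. The labels do not say which Rora allele the mutants carried or in which cells it acted, and Rora mutants in room air were not analysed here. A difference between smoke-exposed mutants and smoke-exposed WT mice can therefore belong to the genotype alone or to genotype and smoke together.

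NF-κB is a family of dimeric transcription factors that inhibitor proteins hold in the cytoplasm. Signals from TNF, interleukin-1 or Toll-like receptors lead to degradation of the inhibitor IκBα, and the freed dimers induce cytokines and, at the same time, the genes of their own inhibitors. In the lung this programme runs in macrophages, epithelium and endothelium and is known for its response to microbes and to inhaled smoke. Rora encodes the nuclear receptor RORα. In human smooth muscle cells, RORα has been reported to raise transcription of the gene for IκBα.

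Values below are levels, meaning log2 signal relative to the 75th percentile of the same array, and a difference is a difference of group means on that log2 scale. A gene was called higher or lower when limma's moderated test gave it a p under 0.05 after Benjamini-Hochberg adjustment across the 19823 genes. The 3 comparisons share arrays, so none of them supports another. From 70.1% to 74.8% of spots per array were well above background, and the 75th percentile lay between 785.2 and 1313 intensity units. Rora itself had a level of 1.10 ± 0.04 (SD, n = 4) for room air, 1.18 ± 0.04 for WT smoke and -1.01 ± 0.10 for mutant smoke, and the 4 arrays labelled mutant lay below the other 8. The sex labels did not match the arrays. Levels of Xist, which is transcribed from the inactive X chromosome of female cells, were 3.97 to 4.13 across the room-air group, -8.17 to -3.18 for WT smoke and -6.26 to -3.38 for mutant smoke. Signal of 4 genes on the Y chromosome (Ddx3y, Kdm5d, Uty, Eif2s3y) cleared background on every array of both smoke groups. From room air, Eif2s3y cleared it on 2 of 4 arrays, at levels of -8.80 to -5.59 against 1.09 to 1.57 over both smoke groups, and the other 3 genes on 0 of 4. Sex-linked signal and smoke exposure therefore coincide and cannot be told apart in either comparison with room air. Markers of endothelium (7 of 7) and of lung epithelium (8 of 8) were well above background on all 12 arrays, so the markers of the labelled tissue were present. In whole lung, fewer cells of a type and less RNA per cell cannot be told apart.

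The promoter sequence next to the start site is shown for the 3 members called higher than under room air in at least 1 smoke group, Ptgs2, Birc3 and Nfkbia, and for Tnfaip3, an inhibitor gene with several NF-κB consensus matches. Each sequence is the 250 bases before the start site, 5′ to 3′ on the gene's strand, from RefSeq on GRCm38.p6, and capitals mark matches to the NF-κB consensus on either strand. The windows are chr1:150099781-150100030 (plus strand) for Ptgs2, chr9:7873171-7873420 (minus strand) for Birc3, chr12:55492648-55492897 (minus strand) for Nfkbia and chr10:19015411-19015660 (minus strand) for Tnfaip3.
Ptgs2: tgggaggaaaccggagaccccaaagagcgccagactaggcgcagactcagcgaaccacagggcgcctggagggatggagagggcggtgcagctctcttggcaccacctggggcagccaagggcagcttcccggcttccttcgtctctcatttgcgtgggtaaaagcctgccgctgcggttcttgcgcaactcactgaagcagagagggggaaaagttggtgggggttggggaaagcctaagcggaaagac
Birc3: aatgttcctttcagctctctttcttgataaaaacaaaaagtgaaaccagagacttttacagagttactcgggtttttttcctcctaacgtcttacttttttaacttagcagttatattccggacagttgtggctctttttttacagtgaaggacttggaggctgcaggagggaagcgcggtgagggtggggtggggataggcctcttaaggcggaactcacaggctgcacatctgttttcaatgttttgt
Nfkbia: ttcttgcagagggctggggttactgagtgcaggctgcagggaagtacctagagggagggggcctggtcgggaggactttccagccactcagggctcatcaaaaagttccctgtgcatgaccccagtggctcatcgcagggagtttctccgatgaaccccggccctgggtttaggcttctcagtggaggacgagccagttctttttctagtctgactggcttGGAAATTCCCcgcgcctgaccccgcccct
Tnfaip3: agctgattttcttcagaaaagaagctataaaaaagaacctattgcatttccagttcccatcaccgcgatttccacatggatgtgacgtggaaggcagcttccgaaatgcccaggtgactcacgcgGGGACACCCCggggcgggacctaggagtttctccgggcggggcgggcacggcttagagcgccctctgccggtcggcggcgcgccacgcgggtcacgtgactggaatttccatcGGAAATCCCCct
The Nfkbia window holds a match from -29 to -20 relative to the start site, and the Tnfaip3 window holds matches from -125 to -116 and from -12 to -3. The Ptgs2 and Birc3 windows hold none, which says only that these letters are not in this stretch. RefSeq windows of 250 bases before to 50 bases after the start were given for 8 of the 10 members, and 4 of these 8 (Nfkbia, Nfkb2, Tnfaip3 and Il6) had at least 1 match. Some genes have several start sites: counted by window, 6 of 11 windows of these members had a match, and among all 32851 windows of that length 8.46% had one. The Nfkb2 windows at chr19:46305445-46305744 and chr19:46305680-46305979 overlap and share the match GGGACTTTCC, so that site is counted in both. The letters AGGTCA, the core of a ROR element, searched on both strands, were in a window of 0 of the 8 members and in 16.3% of all windows. These matches are a description of sequence and not of factor binding.

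Ptgs2 encodes cyclooxygenase-2, the inducible enzyme that turns arachidonic acid into prostaglandin H2, and it had the largest difference of the 10 genes in both comparisons with room air. Between the smoke groups Il6 had a larger difference (-0.73), which was not called (adjusted p = 0.22). On the Ptgs2 probe with 10 spots per array, levels were -3.43, -3.19, -2.88 and -3.40 for room air (replicates 1 to 4), -2.01, -2.19, -1.65 and -2.08 for WT smoke and -2.63, -2.70, -2.45 and -2.39 for mutant smoke. The 3 groups did not overlap: every WT smoke array lay above every mutant array, and every mutant array lay above every room-air array. In intensity units the same probe read 85.7 to 146.6 for room air, 186.0 to 301.4 for WT smoke and 148.3 to 207.6 for mutant smoke, so it was dim but well above background on all 12 arrays. Smoke-exposed WT lungs held 2.37-fold more Ptgs2 signal than room-air lungs (difference 1.24, SE 0.14, adjusted p = 4.67e-04, higher in 4 of 4 arrays). It was 1.48-fold lower in mutant smoke than in WT smoke (difference -0.56, SE 0.14, adjusted p = 0.0383, lower in 4 of 4 arrays). Against room air, mutant smoke was 1.60-fold higher (difference 0.68, SE 0.14, adjusted p = 7.18e-03).

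The second Ptgs2 probe lies on the same transcript at mm8 chr1:151869504-151869563, beside the first at chr1:151869832-151869891, and has 1 spot per array. It gave differences of 1.18 (SE 0.13, adjusted p = 5.16e-04 over all kept probes), -0.57 (SE 0.13, adjusted p = 0.0301) and 0.60 (SE 0.13, adjusted p = 0.0106) for the same 3 comparisons, and its groups did not overlap either. The spread between spots within an array was small: the median SD over the 10 spots was 0.071, against an SD of 0.215 between mice of a group. Within slides, each of which held all 3 groups, WT smoke exceeded room air by 1.05 to 1.41 and mutant smoke lay below WT smoke by differences of -0.57 to -0.77, each resting on 1 or 2 arrays per group. The call against room air held with any of the 12 arrays left out (adjusted p 3.00e-04 to 2.26e-03 for WT smoke), and was lost with normexp background correction (difference 0.53, adjusted p = 0.885). With normexp the mutant differences were not called either, at -0.10 (adjusted p = 0.865) against WT smoke and 0.44 (adjusted p = 0.943) against room air. The call between the smoke groups was lost when any of 8 single arrays was left out, namely mutant replicates 1 to 4, WT smoke replicates 1, 3 and 4 or room-air replicate 2, with the difference between -0.61 and -0.45 and adjusted p up to 0.0872.

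**Figure D1:**
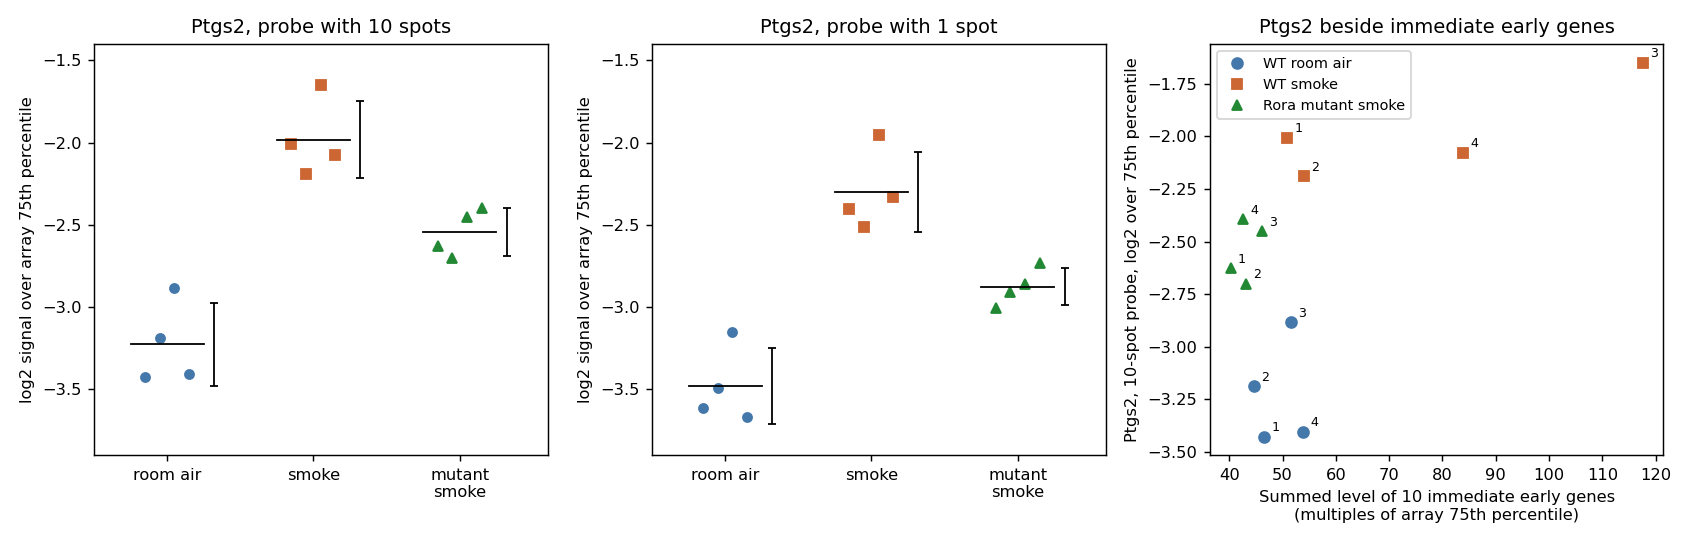
Ptgs2 on each array. The left and middle panels plot the level of the 10-spot and the 1-spot probe (log2 signal over the array's 75th percentile) by group, with a line at the mean and a bar of ± 1 SD (n = 4); WT smoke is highest, mutant smoke intermediate and room air lowest on both probes. The right panel plots the 10-spot level against the summed level of 10 immediate early genes, with replicate numbers, and shows WT smoke replicates 3 and 4 to the right of the other 10 arrays.

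Immediate early genes, transcription factors and other genes induced within minutes of a stimulus, also varied among the WT smoke arrays. The summed level of 10 of them (Fos, Fosb, Jun, Junb, Egr1, Egr2, Atf3, Ier2, Nr4a1 and Btg2, as multiples of the array's 75th percentile, all 10 well above background on every array) was 50.9, 54.0, 117.6 and 83.9 in WT smoke replicates 1 to 4. It was 44.7 to 53.9 in room air and 40.2 to 46.2 in mutant smoke. On this sum, which the brightest genes carry, replicates 3 and 4 of WT smoke stood apart from the other 10 arrays, and replicates 1 and 2 lay near the top of the room-air range. Gene by gene, 7 of the 10 lay above their room-air mean on all 4 WT smoke arrays. The median difference of the 10 was 0.53 in WT smoke against room air and -0.55 in mutant against WT smoke. In each, 6 of 10 had an unadjusted p under 0.05 (limma), against 3633 and 4196 of all 19823 genes. Over the same comparisons Ptgs2 differed by 1.24 and -0.56. Of the 10 genes, Junb was called in WT smoke against room air (higher, difference 0.66, adjusted p = 0.0411) and in mutant against WT smoke (2.01-fold lower, adjusted p = 5.92e-03), and 9 were not called in each. Ptgs2 in WT smoke replicates 1 and 2 was -2.01 and -2.19, above every mutant and room-air array. The part of the immediate early genes in the Ptgs2 differences was not tested.

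The other inhibitors and survival genes moved less. Birc3 encodes cIAP2, a ubiquitin ligase that protects cells from TNF-induced death. On its brighter probe its levels were 1.53, 1.47, 1.39 and 1.33 for room air, 1.61, 1.63, 1.68 and 1.75 for WT smoke and 1.56, 1.65, 1.69 and 1.65 for mutant smoke. All 8 smoke-exposed arrays lay above all 4 room-air arrays, and the smoke groups overlapped. Birc3 was 1.18-fold higher in WT smoke (difference 0.24, SE 0.06, adjusted p = 0.0363) and 1.15-fold higher in mutant smoke (difference 0.21, SE 0.06, adjusted p = 0.0292) than under room air, while mutant and WT smoke differed by -0.03 (SE 0.06, adjusted p = 0.811). The second Birc3 probe had differences of 0.27 and 0.25 against room air without passing the test (adjusted p = 0.146 and 0.0924 over all kept probes). The WT smoke call was lost with any of 7 single arrays left out (room-air replicates 2, 3 and 4, WT smoke replicates 2, 3 and 4, mutant replicate 2), with adjusted p up to 0.0975. The mutant smoke call was lost with any of 6 (room-air replicates 2, 3 and 4, mutant replicates 2, 3 and 4), with adjusted p up to 0.0777. Of 12 other alternatives of processing or fit, 6 ended the WT smoke call (adjusted p up to 0.659). The mutant smoke call was ended by 5 of these 12 (adjusted p up to 0.943).

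Nfkbia encodes IκBα, the inhibitor that NF-κB itself induces. Its levels were 5.08, 4.81, 4.91 and 4.86 for room air, 5.10, 4.81, 5.18 and 5.37 for WT smoke and 5.16, 5.34, 5.46 and 5.50 for mutant smoke. The mutant arrays lay above all room-air arrays, and WT smoke overlapped both. Nfkbia was 1.37-fold higher in mutant smoke than under room air (difference 0.45, SE 0.12, adjusted p = 0.022). The steps from room air to WT smoke (0.20, SE 0.12, adjusted p = 0.411) and from WT smoke to mutant smoke (0.25, SE 0.12, adjusted p = 0.241) did not pass. Leaving out room-air replicate 2 or 4, or mutant replicate 3 or 4, ended the call, with adjusted p up to 0.0659. Of 12 other alternatives of processing or fit, normexp among them, 0 ended it. Its single probe has 1 spot and reads 27260 to 49490 intensity units without saturation on any array.

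Tnfaip3 encodes A20, a ubiquitin-editing enzyme that shuts down signalling to NF-κB. Its levels ran from -0.13 to -0.02 for room air, from 0.00 to 0.26 for WT smoke and from -0.01 to 0.38 for mutant smoke, so both smoke groups lay above room air without overlap. The gaps were narrow: the highest room-air array stood at -0.0159, the lowest mutant array at -0.0142 and the lowest WT smoke array at -0.0037. The probe has 1 spot. Neither difference passed the test over all genes (0.13, SE 0.09, adjusted p = 0.486 for WT smoke; 0.20, SE 0.09, adjusted p = 0.156 for mutant smoke), and the smoke groups overlapped.

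Among the subunits, Nfkb1 encodes p105, the precursor of p50, and was measured by 4 probes that did not move alike. The probe that represents the gene (the brightest, designed on a cDNA, mm8 chr3:135548598-135548657) had levels of 0.53, 0.53, 0.53 and 0.52 for room air, 0.47, 0.38, 0.47 and 0.13 for WT smoke and 0.29, 0.30, 0.28 and 0.31 for mutant smoke. Both smoke groups lay below room air on it. Its difference was -0.24 (SE 0.07, adjusted p = 0.0366, 1.18-fold lower) for mutant smoke against room air and -0.17 (SE 0.07, adjusted p = 0.218) for WT smoke against room air. The probe with 10 spots (mm8 chr3:135522133-135522194) instead had levels of 0.29 ± 0.17 (SD, n = 4) for room air, 0.26 ± 0.03 for WT smoke and 0.39 ± 0.04 for mutant smoke. Its mutant differences were positive, 0.12 against WT smoke and 0.10 against room air, with adjusted p = 0.388 and 0.407. The remaining probes had negative differences in all 3 comparisons and were not called. The Nfkb1 call is thus that of 1 probe of 4, and leaving out any single room-air or mutant array ended it (adjusted p up to 0.0781). So did 6 of 12 other alternatives of processing or fit (adjusted p up to 0.297).

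Nfkb2, which encodes p100, the precursor of p52, had levels of 0.62 ± 0.09 (SD, n = 4) for room air, 0.47 ± 0.07 for WT smoke and 0.55 ± 0.13 for mutant smoke. Relb, the partner of p52 in the non-canonical branch, stood at 1.49 ± 0.06, 1.44 ± 0.09 and 1.45 ± 0.13 in the same order. Groups overlapped for both genes in all 3 comparisons, with adjusted p between 0.32 and 0.93.

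The cytokine transcripts did not pass in any comparison. Il1b, which encodes interleukin-1β, had levels of -0.92, -0.98, -0.91 and -1.12 for room air, -1.38, -1.49, -1.15 and -0.90 for WT smoke and -1.80, -2.03, -0.97 and -1.46 for mutant smoke. Room air was the tightest group, and mutant replicates 1 and 2 were the lowest of the 12 arrays. The difference of mutant smoke against room air was -0.58 (SE 0.20, adjusted p = 0.0684), and with mutant replicate 3 left out it was -0.78 and passed (adjusted p = 8.26e-03). That array stood apart from the other mutant arrays in some summed marker levels. These were 10.77 against 4.52 to 6.59 for 8 B cell markers and 4.05 against 2.29 to 2.65 for 8 T cell markers. For 10 alveolar macrophage markers they were 124.2 against 159.0 to 189.6. Chil3 carries that sum, and the mean log2 level of the 10 was 1.86 against 2.22 to 2.27. For 8 neutrophil markers, the sum of 14.7 lay within 10.1 to 16.4. The part of cell content in the Il1b levels was not tested. The Il1b spots agreed closely, with a median SD of 0.046 over 10 spots against 0.313 between mice.

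Tnf, the gene of tumour necrosis factor, was dim at 41.0 to 107.1 intensity units. Its levels in WT smoke were -3.64, -3.61, -4.53 and -4.25, against -4.52 to -4.22 in room air and -4.48 to -3.97 in mutant smoke. WT smoke replicates 1 and 2 were the highest arrays and replicate 3 the lowest, and no comparison passed (adjusted p 0.339 to 0.65). Il6, which encodes interleukin-6, was near background at 10.4 to 34.7 intensity units. It was well above background on 4 of 4 arrays of each WT group and on 3 of 4 mutant arrays. An array counted here when at least a share of 0.5 of the probe's spots was well above background. Room-air replicate 1 counted with 5 of 10 spots. Its levels were -6.36 to -5.08 for room air, -6.05 to -4.77 for WT smoke and -6.72 to -5.73 for mutant smoke, and the groups overlapped. The median SD over its 10 spots was 0.247, against 0.512 between mice. The mutant against WT smoke difference was -0.73 (SE 0.32, unadjusted p = 0.0439, adjusted p = 0.22).

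**Figure D2:**
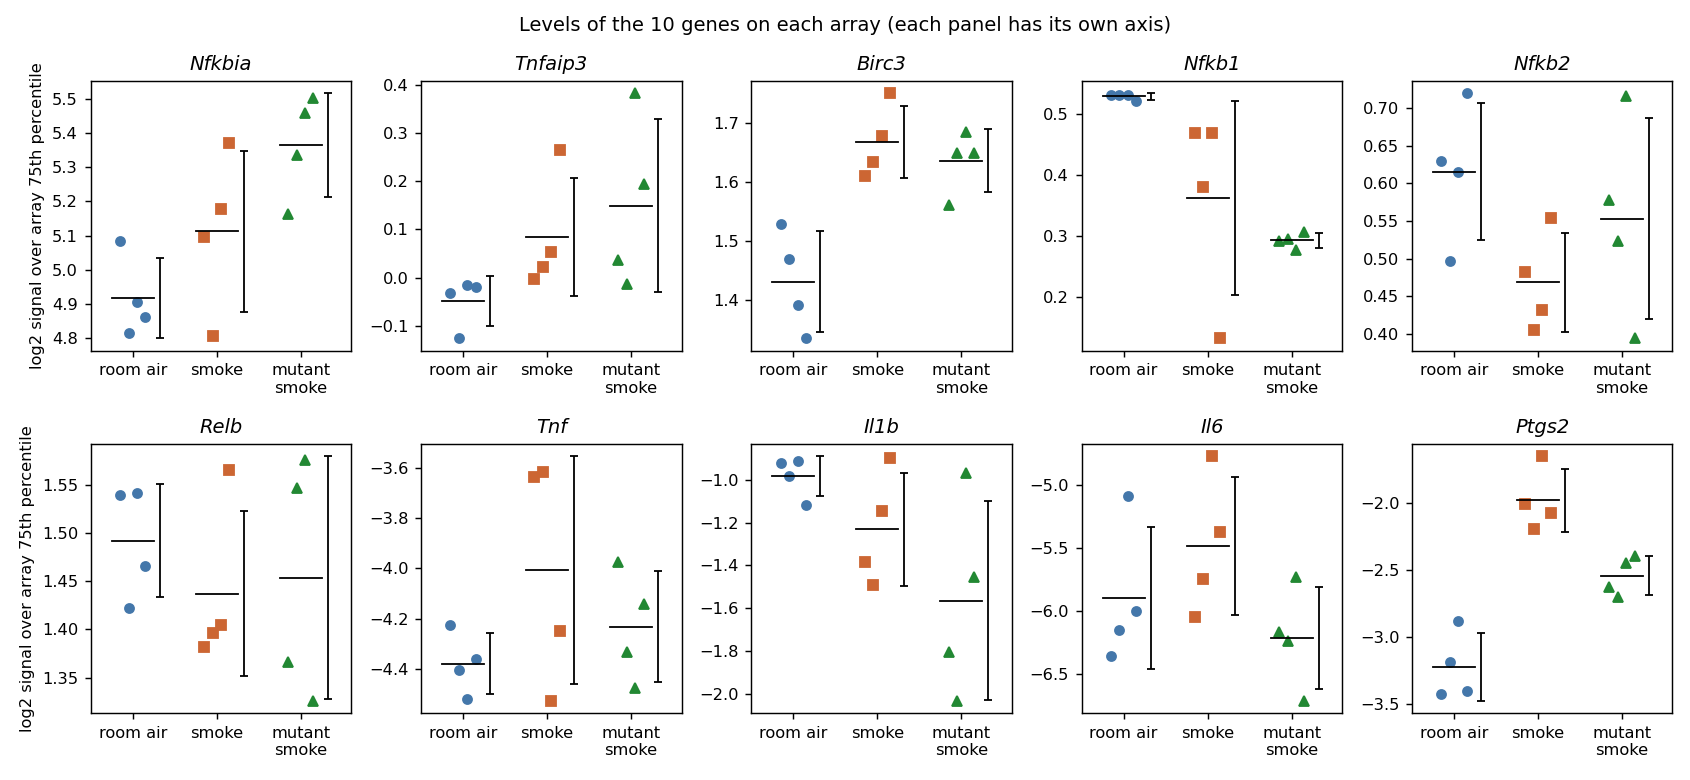
Levels of the 10 genes on every array, as log2 signal over the array's 75th percentile, by group. Points are arrays (n = 4 per group, 1 mouse each), lines are means and bars are ± 1 SD; each panel has its own axis, so heights are not to be read across genes. The 3 groups separate fully only for Ptgs2, and in Il1b, Tnf and Il6 the groups overlap.

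Counted together, 2 of the 10 genes were called higher (Ptgs2 and Birc3) and 0 lower in WT smoke against room air. Of all genes, 2.31% were called higher and 2.55% lower. The groups did not overlap for 4 of the 10 (Nfkb1, Tnfaip3, Ptgs2 and Birc3), against 12.9% of all genes. The median difference of the 10 was 0.16, and over all genes the median was -0.01. An unadjusted p under 0.05 (limma) was reached by 3 of the 10 and by 3633 of all 19823 genes.

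In mutant smoke against WT smoke, 1 of 10 was called lower (Ptgs2) and 0 higher, where 3.56% of all genes were called lower and 2.48% higher. The groups did not overlap for that 1 gene, against 13.4% of all genes, which is close to the share of all genes. The median difference was -0.05. An unadjusted p under 0.05 (limma) was reached by 2 of the 10 (Ptgs2 and Il6) and by 4196 of all 19823 genes.

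In mutant smoke against room air, 3 were called higher (Ptgs2, Nfkbia and Birc3) and 1 lower (Nfkb1), where 6.67% of all genes were called higher and 10% lower. The groups did not overlap for 5 of 10, against 21% of all genes. This contrast joins genotype, smoke and the difference in sex-linked signal.

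**Figure D3:**
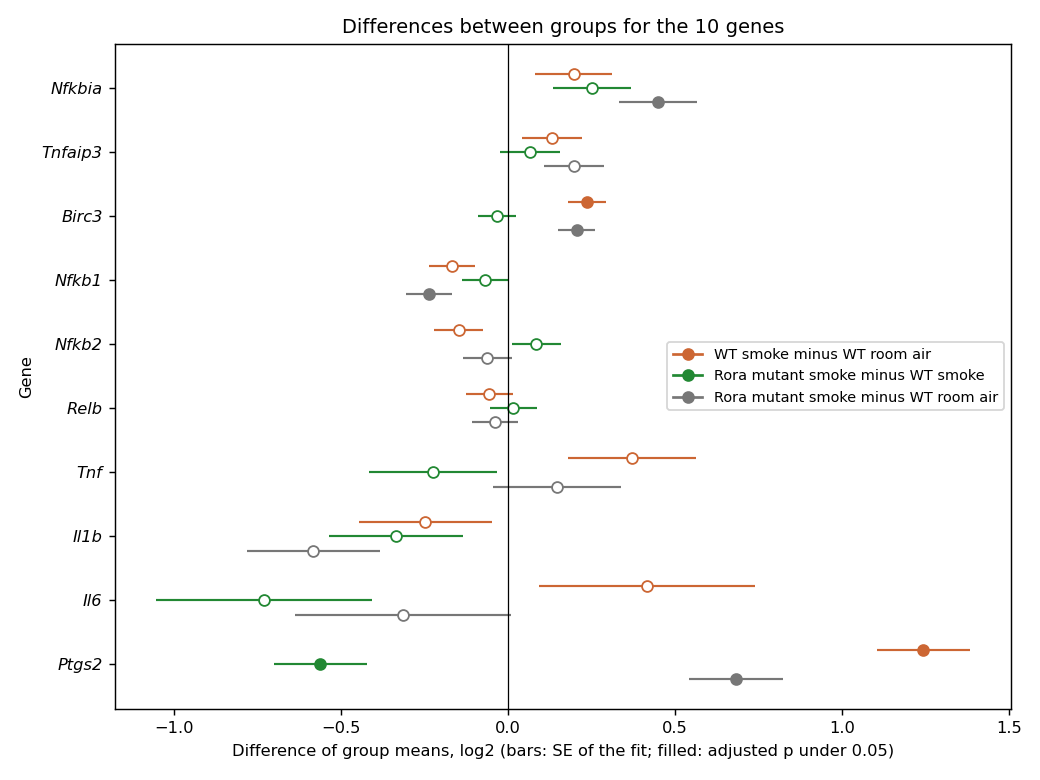
Differences of group means on the log2 scale for the 10 genes in the 3 comparisons, with bars of ± 1 SE of the limma fit on 12 arrays; filled points had an adjusted p under 0.05. Ptgs2 is the only gene filled in all 3 comparisons, at 1.24, -0.56 and 0.68.

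Mutant replicate 3 was the highest of its group for 6 of the 10 genes, and WT smoke replicate 4 was the highest of its group for 6 of 10. The mean standardised level over the 9 members well above background on all arrays was highest on these arrays, at 0.72 and 0.53, and lowest on room-air replicate 2, at -0.47. Across the 12 arrays, the genes whose levels ran most like that mean were Nucks1 (Pearson r = 0.93, Spearman rho = 0.87), Grin3b (0.92 and 0.86), 5330438D12Rik (0.84 and 0.70), Ptprj (0.84 and 0.83) and Supt5 (0.83 and 0.87), out of 18219 compared. These correlations are a description over 12 arrays that share slides and groups.

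Of 106 tested genes in 7 lists around the pathway, 4 were called higher and 1 lower in WT smoke against room air, 5 higher and 7 lower in mutant against WT smoke, and 13 higher and 9 lower in mutant smoke against room air. As shares, 3.77% and 0.943%, 4.72% and 6.60%, and 12.3% and 8.49% were called higher and lower in that order. Of all genes, 2.31% and 2.55%, 2.48% and 3.56%, and 6.67% and 10% were called higher and lower. The calls by list and by cell type marker below are to be read beside these shares. An unadjusted p under 0.05 (limma) was reached by 3633, 4196 and 6100 of all 19823 genes in the same order of comparisons. Counts at that threshold in the lists below are to be read beside these. Of the 39 calls, 24 were kept with every single array left out. Normexp background correction ended 34 of the 39; the 5 that it kept were Tnfaip2 in both comparisons with room air, and Il18, Tnfsf13b and Ltc4s in mutant smoke against room air. An alternative other than these ended 13 of the 39.

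Among the other NF-κB subunits and IκB proteins, 0 of 6 tested genes were called in any comparison (limma, adjusted), with 0, 2 and 2 at an unadjusted p under 0.05 in the order WT smoke against room air, mutant against WT smoke and mutant smoke against room air. The lowest adjusted p between the smoke groups belonged to Nfkbid, an atypical nuclear IκB, at -0.45 (adjusted p = 0.0787), and the median differences of the list were -0.02, -0.08 and -0.17. Of 24 kinases, adaptors and ubiquitin enzymes upstream, 1 was called higher in each comparison with room air, Ikbkg, which encodes NEMO, the regulatory subunit of the IκB kinase, with differences of 0.40 (adjusted p = 0.0192) in WT smoke and 0.43 (adjusted p = 5.01e-03) in mutant smoke. Ikbkg lies on the X chromosome, and in both of these comparisons sex-linked signal differs along with smoke, so the 2 cannot be told apart. Its WT smoke call was lost without room-air replicate 1 or 4 or WT smoke replicate 3. Its other 3 probes had differences of 0.10, 0.43 and 0.79 in WT smoke. The adaptor gene Traf2 was lower in mutant smoke than under room air (-0.22, adjusted p = 0.0413), a call lost with 9 of the 12 arrays left out in turn. Between the smoke groups 0 of the 24 were called, with 4 at an unadjusted p under 0.05.

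Of 17 receptors, 0 were called in WT smoke against room air (5 at an unadjusted p under 0.05) and 0 in mutant against WT smoke (4 at an unadjusted p under 0.05). In mutant smoke against room air, Cd14, the co-receptor for bacterial lipopolysaccharide, was lower (-0.39, adjusted p = 0.0111). The TNF receptor gene Tnfrsf1b (0.22, adjusted p = 0.0349) and the interleukin-1 receptor antagonist gene Il1rn (0.47, adjusted p = 0.0375) were higher in that comparison, and each of these calls was lost with 6 of the 12 arrays left out in turn. A second Tnfrsf1b probe had a difference of -0.10 (adjusted p = 0.609).

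Of 11 cytokines of the same families, Il18 was higher in mutant smoke than in WT smoke (0.42, SE 0.06, adjusted p = 3.77e-03) and than under room air (0.46, adjusted p = 6.97e-04). Its product is an interleukin-1 relative. Il18 lies on chromosome 9, as Rora does, and the part of sequence linked to the mutated gene was not tested. Tnfsf13b, the gene of the B cell survival factor BAFF, was lower in mutant smoke than in WT smoke (-0.38, SE 0.06, adjusted p = 6.26e-03) and than under room air (-0.48, adjusted p = 4.77e-04), and its second probe moved the same way (-0.55 and -0.68). Both genes kept these calls with every single array left out, but with normexp the calls between the smoke groups were lost (0.36, adjusted p = 0.135 for Il18; -0.33, adjusted p = 0.184 for Tnfsf13b). Osm, the gene of oncostatin M, was also lower in mutant smoke than under room air (-0.46, adjusted p = 0.0481), but the call was lost with 10 of the 12 arrays left out in turn. None of the 11 was called in WT smoke against room air (limma, 2 at an unadjusted p under 0.05).

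Of 12 genes that process cytokines or damp signalling, Ier3, an early response gene that limits cell death, was higher in WT smoke (0.63, SE 0.08, adjusted p = 7.88e-04) and in mutant smoke (0.32, adjusted p = 0.0165) than under room air. It was lower in mutant than in WT smoke (-0.32, adjusted p = 0.0351). Its order of groups was that of Ptgs2, with WT smoke above mutant smoke above room air, at levels of 2.90 ± 0.13, 2.58 ± 0.12 and 2.26 ± 0.07 (SD, n = 4). The call between the smoke groups was lost with any of 6 single arrays left out, and that of mutant smoke against room air without room-air replicate 2. Socs1, which encodes a suppressor of cytokine receptor signalling, was lower in mutant smoke than in WT smoke (-0.53, SE 0.10, adjusted p = 0.0102) and than under room air (-0.64, adjusted p = 1.18e-03). Socs3, a relative of Socs1, was lower in mutant than in WT smoke (-0.26, adjusted p = 0.0456), a call lost with 11 of the 12 arrays left out in turn. Gadd45b, a survival gene, was higher in mutant smoke than under room air (0.45, adjusted p = 4.74e-03), while its second probe had a difference of 0.07 (adjusted p = 0.538). Adam17, whose product releases TNF from the cell surface, was lower there (-0.26 on both probes, adjusted p = 0.0429 and 0.0228), a call lost with 9 of 12 arrays left out in turn.

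Of 18 chemokine, adhesion and acute targets, Tnfaip2, a TNF-induced gene, was higher in WT smoke than under room air (0.51, SE 0.06, adjusted p = 3.35e-04) and higher still in mutant smoke (0.73, adjusted p = 1.38e-05). Its mutant against WT smoke difference of 0.22 (adjusted p = 0.0391) was lost with 11 of the 12 arrays left out in turn. The epithelial neutrophil attractant Cxcl5 was higher in WT smoke than under room air (1.68, adjusted p = 0.0456), but it cleared background on 2 of 4 room-air arrays, and 11 of the 12 arrays ended the call when left out. Lcn2, the gene of an iron-binding defence protein, was lower in WT smoke (-0.64, adjusted p = 0.0458), a call lost with 10 of 12 left out in turn. Sele, the gene of endothelial E-selectin, was dim: it cleared background on 0 mutant arrays, 1 WT smoke array and 3 arrays of the room-air group. It was called lower in mutant smoke than in WT smoke (adjusted p = 0.0134) and than under room air (adjusted p = 3.95e-03), but most of these arrays gave no signal well above background, and with normexp both differences turned, to 0.52 (adjusted p = 0.634) and 0.21 (adjusted p = 0.943), so no fold is given. The chemokine gene Ccl20 was higher in mutant smoke than under room air (1.53, adjusted p = 0.0486), a call lost with 10 of 12 left out in turn.

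Prostaglandin and leukotriene genes act before, beside and after Ptgs2. Of 18 tested, 3 were higher and 2 lower in mutant than in WT smoke, and 5 were higher and 2 lower in mutant smoke than under room air. None was called in WT smoke against room air (limma, 5 at an unadjusted p under 0.05). Ptges, the inducible prostaglandin E synthase that acts after cyclooxygenase-2, had levels of -0.86 ± 0.10 (SD, n = 4) for room air, -0.81 ± 0.13 for WT smoke and -1.57 ± 0.21 for mutant smoke. It was 1.69-fold lower in mutant than in WT smoke (difference -0.76, SE 0.10, adjusted p = 2.31e-03). Ptgir, the prostacyclin receptor, was 1.60-fold lower in mutant than in WT smoke (-0.68, SE 0.08, adjusted p = 1.14e-03); its second probe had a difference of -0.54 (adjusted p = 0.0526). Ptgs1, the constitutive cyclooxygenase, went the other way, 1.54-fold higher in mutant than in WT smoke (0.62, SE 0.08, adjusted p = 1.88e-03). Ltc4s, the leukotriene C4 synthase, was 1.31-fold higher (0.39, SE 0.07, adjusted p = 6.65e-03). Alox5, the 5-lipoxygenase that starts leukotriene synthesis, was higher in mutant smoke than under room air (0.48, adjusted p = 1.77e-03), and its other probes gave 0.42 (adjusted p = 4.24e-04) and 0.17 (adjusted p = 0.152). Ptges, Ptgir, Ptgs1, Ltc4s and Alox5 kept these calls with every single array left out, and each of them lost these calls with normexp. The differences between the smoke groups were then -0.44 for Ptges (adjusted p = 0.209), -0.35 for Ptgir (adjusted p = 0.47), 0.46 for Ptgs1 (adjusted p = 0.201) and 0.36 for Ltc4s (adjusted p = 0.101), and Alox5 stood at 0.36 (adjusted p = 0.0502) against room air.

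**Figure D4:**
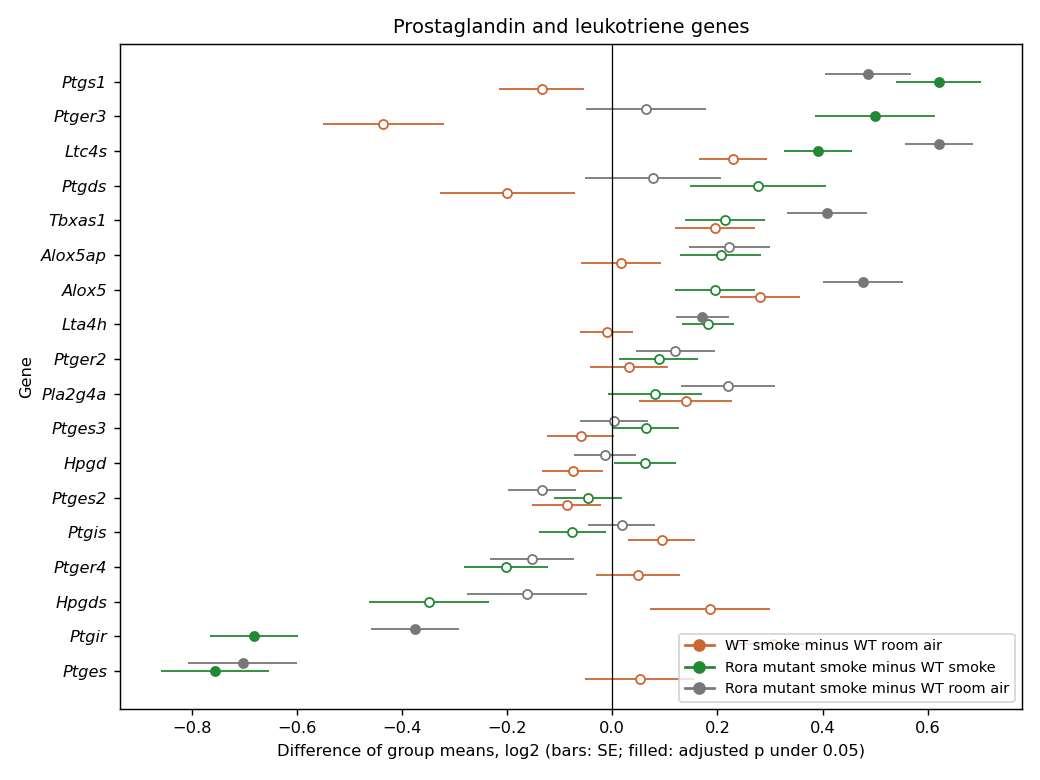
Differences of group means (log2) for the 18 tested prostaglandin and leukotriene genes in the 3 comparisons, ordered by the mutant against WT smoke difference; bars are ± 1 SE and filled points had an adjusted p under 0.05. Ptges and Ptgir lie at -0.76 and -0.68 and Ptgs1 at 0.62 between the smoke groups, and no gene is filled in WT smoke against room air.

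Markers of 3 cell types that carry these transcripts were set beside the differences, and those of alveolar macrophages stood apart in the mutants. The summed level of 10 alveolar macrophage markers was 92.6 to 100.4 for room air, 94.5 to 109.1 for WT smoke and 124.2 to 189.6 for mutant smoke, where 5 of 10 were called higher than in WT smoke and 8 of 10 higher than under room air. All 10 were well above background on every array, and Chil3, the brightest, carries the sum. Their mean log2 level was 1.565 ± 0.067 (SD, n = 4) for room air, 1.633 ± 0.075 for WT smoke and 2.152 ± 0.193 for mutant smoke. In WT smoke against room air, 2 of the 10 were called higher and 1 lower. The summed level of 8 neutrophil markers was 13.8 to 26.5 for room air, 14.4 to 19.1 for WT smoke and 10.1 to 16.4 for mutant smoke, so the groups overlapped. Of the 8, 1 was called lower in mutant than in WT smoke and 3 were called lower in mutant smoke than under room air. In WT smoke against room air 1 of 8 was called, Ltf (lower, difference -2.03, adjusted p = 0.01). Of 6 mast cell markers, 4 were called higher in mutant than in WT smoke, and 3 were higher and 1 lower in mutant smoke than under room air. In WT smoke against room air, 1 of the 6 was called higher and 2 lower. Their summed level was 15.1 to 17.7 for room air, above both WT smoke at 13.2 to 13.8 and mutant smoke at 12.9 to 14.8, which overlapped. Hdc and Kit, the brightest of the 6, carry this sum. The mean log2 level of the 6 was -1.97 ± 0.23 (SD, n = 4) for room air, -2.28 ± 0.11 for WT smoke and -1.65 ± 0.11 for mutant smoke. On that mean the smoke groups did not overlap, at -2.44 to -2.21 for WT smoke and -1.75 to -1.55 for mutant smoke. The part of these cell types in the differences of Il1b, Nfkbia, Ptgs1, Ltc4s, Alox5 and the other genes was not tested.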

How the data were processed

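The 10 genes, the lists around them and the tests were chosen with earlier results of these data known. Arrays were scanned with Agilent Feature Extraction 9.5.3.1, per the submitters' processing notes. Per the file headers, the processed signal is a linear intensity after background subtraction within the array. The authors' deposited values are log2 intensity with a common median of 6.79 (r with the processed signal at least 0.99952) and were used as an alternative. Probe positions are on mm8, per the files. From 43379 non-control spots, outlier spots were dropped, spots of a probe were averaged as log2, and the array's log2 75th percentile was subtracted. Probes well above background on at least 4 of 12 arrays, with values on at least 3 arrays per group, were kept (30189). The brightest kept probe represented a gene. limma 3.58.1 (R 4.3.3; data.table version 1.17.8) fitted 1 model on 12 arrays, two-sided, and the fit was tested on simulated data. All 10 genes were named; of each list, up to 4 called genes per comparison with the smallest p were named, or at most 1 where none was called. Likeness took the 5 genes with the highest r. The number of arrays limits precision, and the labels call the 4 arrays of a group biological replicates. Slide, scaling, background, filter, probe choice, left-out arrays and replicate block were the alternatives. Plots used matplotlib 3.10.9 (Python 3.11.15; pandas 2.3.3).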

Additional observations from a re-analysis of the deposited data

Results flagged for a closer look

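Of 30 combinations of a gene and a group of 4 arrays, 3 had an array whose gap to its nearest neighbour took up most of the group's range beyond Dixon's 95% critical value; chance alone marks about 1 in 20 such groups. Relb in WT smoke replicate 4 had a level of 1.56, with the other 3 arrays at 1.38 to 1.40. Nfkb1 in room-air replicate 4 had a level of 0.52, with the others at 0.53, so the gap is minute and stands out only because the group is so tight. Tnfaip3 in room-air replicate 2 had a level of -0.13, with the others at -0.03 to -0.02.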

How the results depend on the processing

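Across 24 alternatives, the 10 genes gave 717 results, of which 661 kept their direction and side of the threshold or turned sign without being called, 54 fell out of the call, 2 came into it and 0 reversed; 16 uncalled differences turned sign. Il6 gave no value when probes had to be well above background on all 12 arrays. Normexp background correction changed most: 53 genes called in WT smoke against room air in place of 963, 26 in mutant against WT smoke in place of 1198 and 160 in mutant smoke against room air in place of 3313, and 0, 0 and 1 of the 10 genes in place of 2, 1 and 4. The Ptgs2 rise in WT smoke was 0.53 there (adjusted p = 0.885). Normexp also turned Osm (mutant smoke against room air, 0.18) and Sele (0.21 against room air, 0.52 against WT smoke). Normexp started from the mean signal and the median background of each spot, not from the processed signal, and added an offset of 50 intensity units. It thus differs from the main processing in more than the background correction. The cause of these changes was not tested. With no filter on dim probes, 564 genes were called in WT smoke and 688 in mutant against WT smoke, and 1, 0 and 2 of the 10 genes in the 3 comparisons; more genes enter the adjustment there. With only the 8 arrays compared, 737 genes were called in mutant against WT smoke, and 1 of the 10 in WT smoke. The mean of all kept probes, the slide as a block and the replicate block each gave 1 of the 10 in WT smoke, and the replicate block 2 in mutant smoke against room air. Deviations of same-numbered arrays from their group means correlated at -0.10 to 0.22, so the numbers were not taken to pair the arrays; the replicate block left 1 of the 10 called in mutant against WT smoke. Scaling to the median turned the split of calls from 457 higher and 506 lower to 624 and 354 in WT smoke, from 492 and 706 to 744 and 540 in mutant against WT smoke, and from 1323 and 1990 to 3173 and 1395 in mutant smoke against room air. With each array left out in turn, 555 to 967 genes were called in WT smoke against room air and 583 to 1147 in mutant against WT smoke, and of the 10 genes 1 to 2, 0 to 1 and 1 to 4 were called in the 3 comparisons. The 75th percentile over probes in place of spots was added after the data were seen and left 2, 1 and 4 of the 10 called.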
